A study of Sus scrofa with 12 samples.

Results

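The 9 genes described here encode surface proteins that are used to tell mesenchymal stromal cells from endothelial and blood-forming cells: CD44, ENG (CD105), NT5E (CD73), THY1 (CD90), PECAM1 (CD31), CD34, VCAM1 (CD106), MCAM (CD146) and ALCAM (CD166). They were found in the mRNA count table by gene symbol or by pig Ensembl identifier. Entries lying on the span of such a gene on the same strand were examined. Of 29658 entries in the table, 14 belonged to these 9 genes. Reads were counted for 8 genes, and 7 passed the filter on low counts. A filter of this kind keeps a gene that is high in 1 group only, so the genes that passed are not a neutral sample of the 9.

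The libraries came from adipose tissue-derived mesenchymal stromal/stem cells (MSCs) of 3 female domestic pigs aged 3 months and from the extracellular vesicles (EVs) that these cells released. MSCs were obtained from abdominal fat with collagenase, grown in medium with platelet lysate and used at passage 3. EVs were pelleted from MSC supernatants by ultracentrifugation. The mRNA part of the study held 3 MSC and 3 EV libraries, 1 of each from every pig, so that replicates 1, 2 and 3 were the same animals in both groups. No treatment was applied, all 6 libraries shared the culture conditions, and EVs were a preparation from the supernatant of a whole culture and not a sorted population. Total RNA was extracted, and 10429085 to 12276855 reads per library were counted on genes, which was 25.4% to 28.2% of the totals behind the deposited RPKM.

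Mesenchymal stromal cells are defined in part by surface CD44, CD73, CD90 and CD105 together with the absence of blood and endothelial proteins such as CD34 and CD31. Several of these proteins are receptors for extracellular matrix or for other cells, and others are enzymes or co-receptors. EVs bud from the surface membrane or are released from internal compartments, and they carry RNA of the parent cell along with surface proteins. mRNA reads measure transcripts and not the proteins at the surface.

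How a gene was listed in the table bears on its level. For 5 of the 9 genes (THY1, ENG, PECAM1, VCAM1 and CD34) an entry named by symbol lay inside a longer entry named by Ensembl identifier on the same strand. For THY1, ENG, PECAM1 and VCAM1, the symbol entry held 0 reads in all 6 libraries and every read stood on the Ensembl entry. For CD34 both entries held 0 reads. The same was seen across the table. Of 3196 symbol entries that lay inside an Ensembl entry of the same strand, 2844 (89%) had no read. Among symbol entries that overlapped no other on their strand, 116 of 459 (25.3%) had none. Ensembl entries that covered a symbol entry and exceeded it by under 100 bases were at 0 in 1271 of 1513 cases (84%), and those that exceeded it by 1000 bases or more were at 0 in 26 of 519 cases (5.01%). How the counting treated reads that lie on both entries was not given in the sources used here. The length of the outer entry that the inner one did not share was taken as the difference between the lengths of their gene models. Positions of exons were not compared, so this length is exact only if the inner model lies wholly within the outer one. It was 1758 bases for THY1 (78.3% of its length), 1747 bases for PECAM1 (40.3%) and 237 bases for ENG (7.54%). For CD34 it was 48 bases (1.79% of its symbol entry) and for VCAM1 18 bases (0.719%). CD44, NT5E, MCAM and ALCAM had 1 entry each with no overlapping entry on the same strand. RPKM of ENG, VCAM1, PECAM1 and THY1 are therefore given both over the whole length, as deposited, and over the unshared length.

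**Figure D1:**
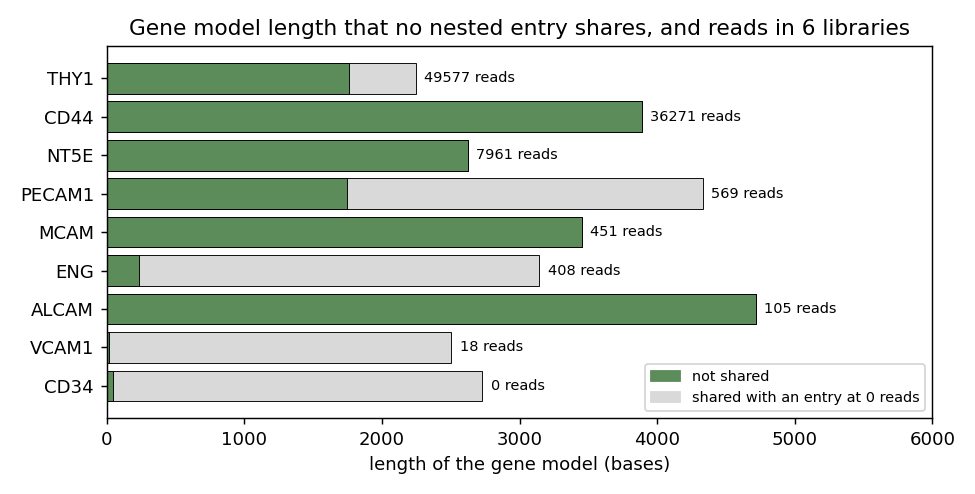
Length of the gene model of each gene in bases (x axis), split into the length that no nested entry of the same symbol shared (green) and the shared length (grey), with the reads summed over the 6 libraries. The unshared length is the length of the longer model less that of the nested one. CD34 and VCAM1, with 0 and 18 reads, had 48 and 18 unshared bases, whereas ALCAM, with 105 reads, shared none of its length.

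By deposited RPKM over the whole length, the genes fell into a high and a low set in both groups. THY1, CD44 and NT5E had the highest mean RPKM (reads per kilobase of gene model, scaled to the mapped reads of the library) in this order in MSCs and in EVs, and in each of these pairs of neighbours the order was the same in all 3 libraries, with no overlap between the genes. Mean RPKM in MSCs was 100.7 ± 13.2 (SD, n = 3) for THY1, 40.2 ± 18.6 for CD44 and 11.55 ± 0.768 for NT5E. Of the 4 genes that define the labelled cell type, 3 were thus in the high set, and ENG was not when its level was taken over the whole length. The next gene, PECAM1, stood at 0.772 ± 0.303. In MSCs the levels of PECAM1 and MCAM, of MCAM and ENG, and of ALCAM and VCAM1 overlapped, so those neighbours could not be put in order beyond their spread. In EVs, ENG followed NT5E, and the levels of MCAM, PECAM1, ALCAM, VCAM1 and CD34 overlapped from each gene to the next. Over the unshared length, mean ENG (5.31 ± 1.70 RPKM in MSCs) and VCAM1 (4.67 ± 2.67) stood above PECAM1, MCAM and ALCAM. In the MSC order, 4 of the 9 genes kept their place. In EVs, ENG over the unshared length reached 10.9 RPKM in pig 2, above NT5E in pig 1 (8.36 RPKM). The high and low sets were therefore not separate in EVs by this measure, although ENG lay below NT5E within each pig. The VCAM1 mean rested on 3, 2 and 6 reads over 18 bases, where 3 reads in a library come to 3.77 to 3.835 RPKM. VCAM1 in the MSCs of pig 2 (2.555 RPKM) lay below PECAM1 in those of pig 1 (2.78 RPKM). VCAM1 and PECAM1 could therefore not be put in order beyond their spread.

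**Figure D2:**
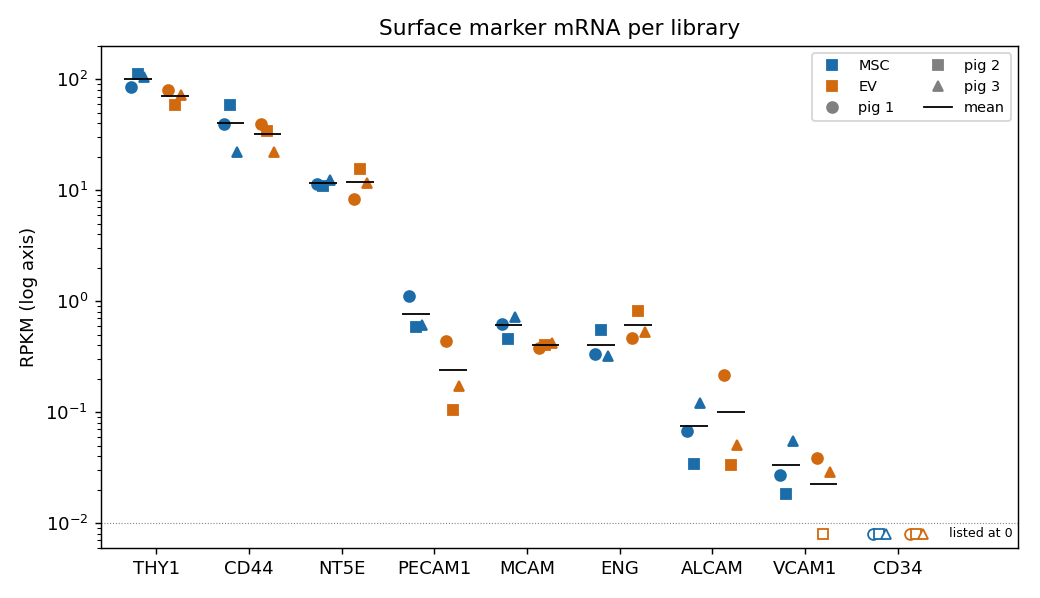
Deposited RPKM of the 9 genes on a log axis, with 1 point per library, blue for MSCs, orange for EVs and a symbol for each pig. Black lines are means of 3 libraries and open symbols at the bottom are values listed at 0. THY1, CD44 and NT5E lay at 8.36 RPKM or above in all 6 libraries and the other genes at 1.12 RPKM or below.

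THY1 encodes a small GPI-anchored glycoprotein of stromal cells, neurons and, in some species, T cells, and it was the most abundant of the 9 transcripts. Its reads stood on ENSSSCG00000015122 (susScr3, chromosome 9, 51638997 to 51644318, minus strand), which was assigned to THY1 because it covered the symbol entry on the same strand. The MSC libraries of pigs 1, 2 and 3 had 8512, 10800 and 10310 reads, or 85.8, 110.7 and 105.7 RPKM. The EV libraries had 7322, 5849 and 6784 reads, or 79.55, 59.0 and 72.55 RPKM. In RPKM every EV library was below every MSC library, while after TMM scaling of the counts (659.2, 1034 and 874.5 in units of scaled counts, CPM, against 618.2, 456.9 and 686.3) the groups overlapped. Over the unshared length the means were 128.6 ± 16.8 RPKM in MSCs and 89.8 ± 13.3 RPKM in EVs (SD, n = 3). Mean THY1 RPKM in MSCs over the whole length ranked 157 among all entries and in EVs 182. The log2 difference of EVs from MSCs was -0.54 (SE 0.30, 95% interval -1.24 to 0.15, adjusted p = 0.381, edgeR with Benjamini-Hochberg adjustment), and the EV library was lower in 3 of 3 pigs. THY1 did not pass the test, and the interval includes a fold change of 2 towards MSCs.

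CD44, the receptor for the matrix polysaccharide hyaluronan, came second. Its entry was ENSSSCG00000013297 (chromosome 2, 28156392 to 28374853, minus strand). CD44 had 6782, 10023 and 3716 reads in the MSCs of pigs 1, 2 and 3 (39.4, 59.2 and 22.0 RPKM). In the EVs it had 6297, 5850 and 3603 reads (39.45, 34.0 and 22.2 RPKM). The groups overlapped, and pig 3 had the lowest CD44 level in both. The SD was 54.8% of the mean TMM-scaled level in MSCs and 18.6% in EVs, where counting alone would give 1.21% and 1.38%. The log2 difference was -0.41 (SE 0.42, 95% interval -1.39 to 0.57, adjusted p = 0.613, edgeR), with EVs higher in 2 pigs and lower in 1. The direction rested on the MSC library of pig 2, since without it the difference was 0.10. The ratio of THY1 to CD44 RPKM was 2.18, 1.87 and 4.81 in MSCs and 2.02, 1.73 and 3.27 in EVs, so pig 3 had the highest ratio and pig 2 the lowest in both.

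NT5E is the ecto-5'-nucleotidase that makes adenosine from AMP outside the cell. On ENSSSCG00000004291 (chromosome 1, 60831750 to 60879526, plus strand), 1328, 1238 and 1411 reads were counted in the MSCs of pigs 1, 2 and 3 (11.4, 10.8 and 12.4 RPKM). The EVs had 900, 1816 and 1268 reads (8.36, 15.7 and 11.6 RPKM). NT5E varied little among MSC libraries, with an SD of 8.26% of the TMM-scaled mean, and more among EV libraries, with 30.1%. In RPKM, EVs of pig 1 lay below and those of pig 2 above all MSC libraries. In TMM-scaled CPM, EVs of pig 3 (128.3) also lay above the highest MSC library (119.7). The log2 difference was 0.02 (SE 0.28, 95% interval -0.63 to 0.67, adjusted p = 0.977, edgeR), an interval that does not reach a fold of 2 in either direction. Its sign changed under 6 of the 16 alternatives.

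ENG is endoglin, a co-receptor for TGF-beta and BMP ligands on endothelial and stromal cells, and its RPKM over the whole length lay below those of THY1, CD44 and NT5E in all 6 libraries. Its reads lay on ENSSSCG00000005625 (chromosome 1, 302232063 to 302266135, minus strand). MSCs of pigs 1, 2 and 3 gave 46, 75 and 44 reads, and their EVs gave 60, 114 and 69. This gave 0.331, 0.549 and 0.322 RPKM in MSCs against 0.465, 0.821 and 0.527 in EVs. Over the 237 unshared bases the means were 5.31 ± 1.70 in MSCs and 8.02 ± 2.52 in EVs (SD, n = 3), nearer to the NT5E means of 11.55 and 11.9 RPKM. ENG was higher in EVs in 3 of 3 pigs, the groups overlapped, and pig 2 was highest in both. The log2 difference of 0.54 did not pass the test (SE 0.42, 95% interval -0.43 to 1.50, adjusted p = 0.508, edgeR). Without the MSC library of pig 2 it was 0.94 (unadjusted p = 0.0393, edgeR), still under a fold of 2.

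PECAM1, an adhesion receptor at the junctions of endothelial cells that platelets and leukocytes also carry, was lower in EVs than in MSCs by the unadjusted thresholds only. Reads on ENSSSCG00000017277 (chromosome 12, 14660875 to 14717153, plus strand) numbered 215, 111 and 114 in the MSCs of pigs 1, 2 and 3. In the EVs of the same pigs they numbered 78, 20 and 31. All 3 EV libraries lay below all 3 MSC libraries, and pig 1 was the highest of each group. TMM-scaled levels were 12.3 ± 3.79 CPM in MSCs and 3.76 ± 2.57 CPM in EVs (SD, n = 3). Deposited RPKM were 0.772 ± 0.303 and 0.238 ± 0.177, and over the unshared length the means were 1.915 and 0.591. The log2 difference was -1.71 (SE 0.54, 95% interval -2.98 to -0.44), a level 3.27-fold lower in EVs. PECAM1 passed an unadjusted p under 0.05 and a fold over 2 in edgeR, but not the adjustment over all entries (adjusted p = 0.249, edgeR with Benjamini-Hochberg). The unadjusted p from edgeR was 0.0147. These values came from a fit that did not pair the libraries by pig. With the pig as a block, the log2 difference was -1.87 (SE 0.43, unadjusted p = 0.00138, adjusted p = 0.0688, edgeR). PECAM1 was not called by the test of the study itself, which compares group means of RPKM. Within pigs 1, 2 and 3 the log2 differences were -1.275, -2.43 and -1.48. An exact two-sided permutation test gave p = 0.1, the smallest that 3 against 3 libraries allow. Leaving out each library in turn gave -2.39 to -1.33, with the lowest value without the EV library of pig 1.

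In bulk libraries like these, fewer cells that express a gene and less of its RNA per cell cannot be told apart, and for EVs the same holds for the share of vesicles that carry it. The part of other cell types in the PECAM1 difference was not tested, but the levels of their markers were measured. Besides PECAM1 and CD34, 20 endothelial marker genes had an entry, and their summed level was 44.5 to 74.5 CPM in MSCs and 35.2 to 89.9 CPM in EVs, which overlapped. Of these 20, 6 were at 0 in every library, namely VWF, ROBO4, MMRN1, SELE, NOS3 and RAMP2, and 4 of the 6 overlapped another entry. KDR, the main VEGF receptor of endothelium, had 1 read in all. ECSCR had 539 reads in the EVs of pig 1, which made 45.5 of the 89.9 CPM there, and 0 in the other libraries. Without ECSCR, an alternative chosen after its values were seen, the EV sums were 44.4, 35.2 and 57.1 CPM and still overlapped those of MSCs. The 6 endothelial markers tested had a median log2 difference of 0.18, with 0 past an unadjusted p under 0.05 and a fold over 2 in edgeR in either direction. The same thresholds called 5.55% of all tested entries higher and 3.57% lower, so 0 of 6 is near those shares. The most abundant were ERG, FLT1 and EGFL7, with log2 differences of -0.16, 0.34 and -0.77. Platelet and erythroid markers summed to 5.00 to 5.58 CPM in MSCs and 3.515 to 6.47 CPM in EVs over 10 genes with 5 at 0. Of those 5, 4 overlapped another entry. Leukocyte markers summed to 65.4 to 73.6 CPM and 63.6 to 88.5 CPM over 25 genes with 8 at 0, and 6 of the 8 overlapped another entry. A count of 0 on an overlapping entry does not show that the transcript was absent. PTPRC (CD45), the defining leukocyte marker, had 4, 6 and 10 MSC reads and 6, 2 and 5 EV reads. Most of the leukocyte sum was CD14, at a mean of 45.7 CPM in MSCs and 52.9 CPM in EVs. CD3E followed at 13.4 and 16.5 CPM.

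CD34, a sialomucin of blood-forming progenitors, endothelium and freshly isolated adipose stroma, was listed at 0 reads in all 6 libraries. Both its symbol entry (chromosome 9, 148445995 to 148470635, plus strand) and the Ensembl entry around it (148445971 to 148470659) were at 0. Over the whole length, the limit taken for a count of 0, 3 reads in a library, came to 0.0253 to 0.0273 RPKM depending on the library. Over the 48 bases that the entries did not share, the same limit was 1.41 to 1.52 RPKM, which is above the MSC means of MCAM and ALCAM. Which of the 2 limits applies depends on how reads lying on both entries were counted.

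**Figure D3:**
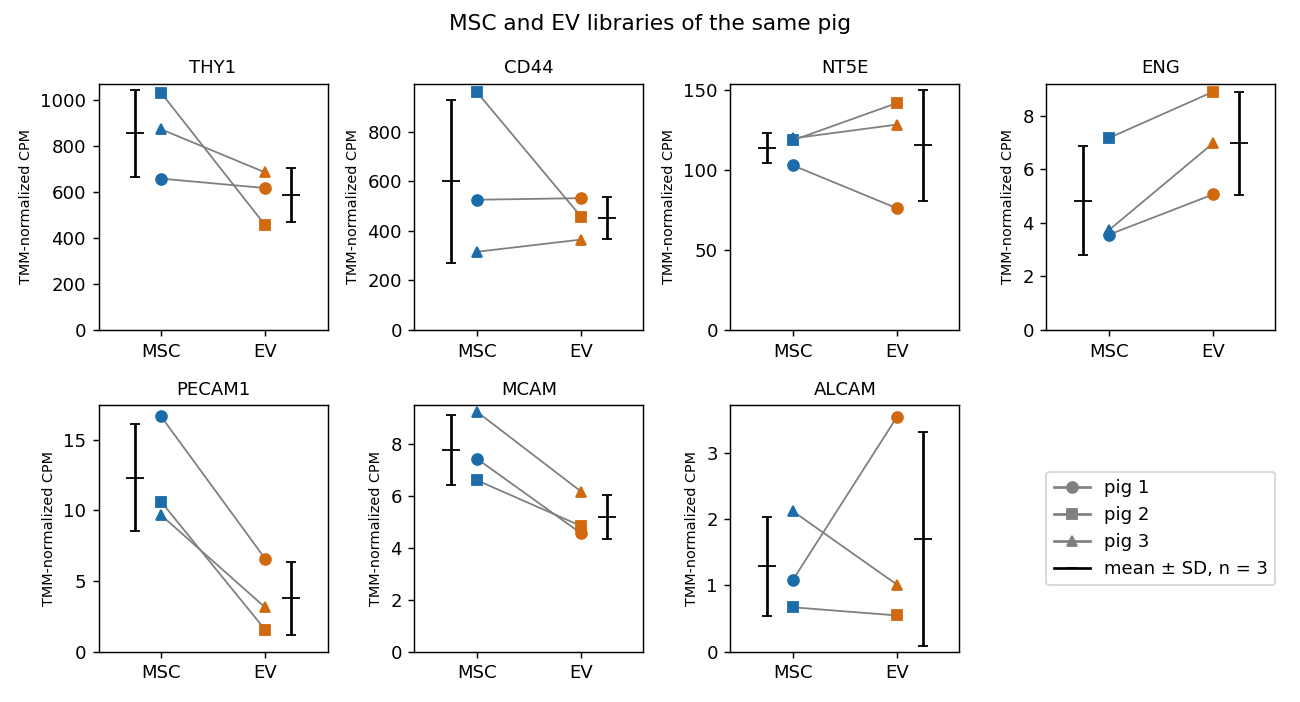
TMM-normalized CPM of the 7 tested genes in MSCs (blue) and EVs (orange), with lines joining libraries of the same pig and bars showing mean ± SD (n = 3). PECAM1 and MCAM were lower in EVs in all 3 pigs with no overlap of the groups, and ENG was higher in EVs in all 3 pigs with overlap.

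MCAM, an adhesion protein of pericytes, endothelium and stromal progenitors, had the next clearest separation. Its entry, ENSSSCG00000015116 (chromosome 9, 51548581 to 51557233, minus strand), lay 81.8 kb from that of THY1. MSCs of pigs 1, 2 and 3 had 96, 69 and 109 reads (0.628, 0.459 and 0.726 RPKM). EVs had 54, 62 and 61 reads (0.381, 0.406 and 0.424 RPKM). All EV libraries were below all MSC libraries in RPKM and in CPM, and the EV values lay close together. The log2 difference was -0.58 (SE 0.32, 95% interval -1.33 to 0.16, adjusted p = 0.381, edgeR), with -0.65, -0.41 and -0.55 in the 3 pigs, and it did not pass the test. The exact permutation p was 0.1. MCAM RPKM was 0.560, 0.780 and 1.199 times PECAM1 RPKM in MSCs and 0.868, 3.89 and 2.47 times in EVs, higher in the EVs of each pig.

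ALCAM, an immunoglobulin-type adhesion protein and ligand of CD6, was near the lower end. Its entry was ENSSSCG00000011946 (chromosome 13, 162987676 to 163247801, minus strand), a gene model of 4715 bases. MSCs of pigs 1, 2 and 3 gave 14, 7 and 25 reads, and their EVs gave 42, 7 and 10. Mean RPKM was 0.0744 ± 0.0444 in MSCs and 0.101 ± 0.101 in EVs (SD, n = 3), and the EV library of pig 1 was the highest of all 6. The log2 difference of 0.39 (SE 0.77, 95% interval -1.40 to 2.19, adjusted p = 0.800, edgeR) spanned more than a fold of 2 both ways. Without the EV library of pig 1 it was -0.74.

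VCAM1, a cytokine-induced ligand of the integrin VLA-4, had too few reads to be tested. On ENSSSCG00000006862 (chromosome 4, 129040262 to 129054592, minus strand) MSCs gave 3, 2 and 6 reads (11 in all) and EVs gave 4, 0 and 3 (7 in all). Exact Poisson intervals of the MSC libraries ran from 0.619 to 8.77, 0.242 to 7.23 and 2.20 to 13.1 reads, and overlapped those of the EVs. Deposited RPKM were 0.0335 ± 0.0192 in MSCs and 0.0226 ± 0.0202 in EVs (SD, n = 3). The reads came with 18 unshared bases, over which the mean was 4.67 ± 2.67 RPKM in MSCs and 3.14 ± 2.81 RPKM in EVs, with a limit of 3 counts at 3.77 to 4.06 RPKM. Such a level could not be told from the limit in either group.

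Across the 7 tested genes, EVs had higher levels of 0 and lower levels of 1 (PECAM1) by an unadjusted p under 0.05 and a fold over 2 in edgeR. The same thresholds called 5.55% of all 12392 tested entries higher and 3.57% lower. Both PECAM1 and MCAM, 2 of 7, had every EV library under every MSC library, as did 13.6% of all entries. With adjustment, 0 of 7 passed in edgeR, and the background was 0% of entries, with 1978 entries at an unadjusted p under 0.05 and 439 adjusted calls in DESeq2. With the pig as a block, 0 of 7 passed against 1.1% of all entries. The median log2 difference over all entries was -0.02, and 49.1% of entries were above 0. With 7 genes, a single gene decides whether a share is above or below these values.

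**Figure D4:**
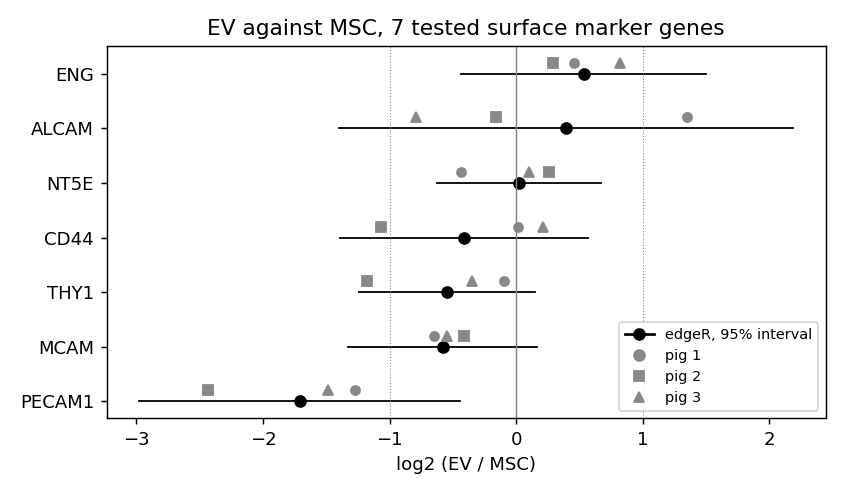
Log2 ratio of EVs to MSCs for the 7 tested genes, with black points and lines for the edgeR estimate and its 95% interval, grey symbols for each pig and dotted lines at a fold of 2. The interval of PECAM1 lay below 0, from -2.98 to -0.44, and the other 6 intervals included 0.

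Other surface genes used for stromal cells were read as a list of 27 besides the 9 genes. By the unadjusted thresholds, EVs had higher levels of 0 and lower levels of 2 of the 19 tested, and 0 passed the adjustment in edgeR. These thresholds called 5.55% of all tested entries higher and 3.57% lower. The median log2 difference was -0.23, and the summed level was 3577 to 5713 CPM in MSCs and 3876 to 5643 CPM in EVs. CD151, a tetraspanin that associates with laminin-binding integrins, had 563, 1029 and 533 MSC reads against 222, 183 and 217 EV reads (log2 -1.77, SE 0.39, unadjusted p = 0.00202, adjusted p = 0.212, edgeR). SDC2, a heparan sulfate proteoglycan of the cell surface, had 2416, 2718 and 3833 MSC reads against 812, 1103 and 1335 EV reads (log2 -1.415, SE 0.34, unadjusted p = 0.00361, adjusted p = 0.219, edgeR). Both were thus in the direction of PECAM1, with no overlap of the reads between the groups. In CPM, every EV library was under every MSC library for 13.6% of all tested entries. The most abundant of the list were CD63, a tetraspanin widely used as an EV marker, and ITGA5 and PDGFRB, a fibronectin receptor chain and a PDGF receptor. Their log2 differences were -0.53, 0.29 and 0.37, and none of the 3 passed the test.

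Pericyte and smooth muscle genes, a cell type that MCAM also marks, had unadjusted calls in both directions, and 0 passed the adjustment in edgeR without the block. By the unadjusted thresholds in edgeR, EVs had higher levels of 2 and lower levels of 1 of the 8 tested. Over all tested entries the shares were 5.55% higher and 3.57% lower. NOTCH3, a Notch receptor of mural cells, had 27, 19 and 23 reads in MSCs against 65, 91 and 146 (log2 2.21, SE 0.46, adjusted p = 0.21, edgeR). ABCC9, a subunit of a potassium channel, had 36, 38 and 24 reads against 43, 406 and 111 (log2 2.46, SE 0.74, adjusted p = 0.243, edgeR). ACTA2, the smooth muscle actin, was lower, with 359, 286 and 431 reads in MSCs against 13, 5 and 39 (log2 -4.10, SE 0.74, adjusted p = 0.206, edgeR). With the pig as a block ACTA2 passed the adjustment (adjusted p = 0.0116, edgeR). CSPG4 and PDGFRB were at -0.35 and 0.37. NDUFA4L2 was at 2.40, with 2685 of its reads in the EVs of pig 3 and 6 overlapping entries. The list of 14 genes summed to 432 to 1117 CPM in MSCs and 737.5 to 1420 CPM in EVs. Most of each sum was PDGFRB, at 631.3 ± 367.5 CPM in MSCs and 818.6 ± 185.5 CPM in EVs (SD, n = 3). PDGFRB and CSPG4 are also in the stromal list, so their reads count in both sums. RGS5, DES and TAGLN were at 0 in all libraries, each overlapping another entry. MYH11 had at most 7 reads in a library.

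**Figure D5:**
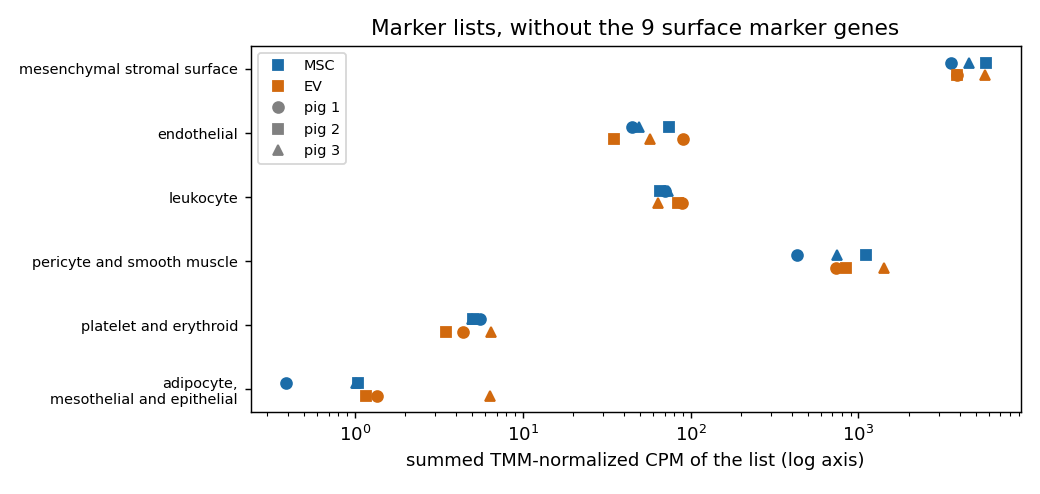
Summed TMM-normalized CPM of each list of cell type markers per library (log axis, blue for MSCs, orange for EVs), without the 9 genes themselves. Stromal markers summed to 3577 CPM or more in each library and endothelial markers to 89.9 CPM or less. PDGFRB and CSPG4 count in both the stromal and the pericyte list. In 5 of the 6 lists the groups overlapped. Sums of adipocyte, mesothelial and epithelial markers did not overlap, at 1.05 CPM or less in MSCs and 1.17 CPM or more in EVs. That list rested on few reads, and none of its genes could be tested.

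Of the ligands, binding partners and enzymes of the 9 proteins, 36 had an entry and 24 were tested. By the unadjusted thresholds, 3.57% of all tested entries were lower and 5.55% higher. Of the 24, only EZR, which encodes ezrin and links CD44 to the actin skeleton, passed them in edgeR. It had 3698, 2278 and 2825 MSC reads against 1922, 983 and 1237 EV reads (log2 -1.03, SE 0.32, unadjusted p = 0.0123, adjusted p = 0.245, edgeR). MSN, the related linker moesin, was at 0.03, LAMA4, a laminin chain that binds MCAM, at 0.11, and NRP1, a co-receptor for VEGF and semaphorins, at 0.91 (unadjusted p = 0.0307, edgeR, fold under 2). The median of the 24 was 0.04 and 15 were above 0. The summed level of the 36 was 3407 to 4244 CPM in MSCs and 4282 to 5500 CPM in EVs, close but without overlap. The largest differences in mean CPM were those of NRP1 (437 in MSCs, 821 in EVs) and TGFBR2, a TGF-beta receptor (356 and 586). A few abundant genes can thus set the sum, which was not tested. The hyaluronan synthase genes HAS1 and HAS2 were at 0 in all libraries, and each overlapped another entry. Of the other immunoglobulin-type adhesion genes, the family of PECAM1, VCAM1, MCAM, ALCAM and THY1, 20 were tested and 0 passed in either direction in edgeR. Their median log2 difference was 0.15, and the most abundant, PTGFRN, ROBO1 and CD276, were at 0.12, 0.56 and -0.01.

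The remaining lists describe cells that a fat-derived culture could hold. Of 5 leukocyte genes tested, 0 passed the unadjusted thresholds in edgeR in either direction. These thresholds called 5.55% of all tested entries higher and 3.57% lower, so with so few genes 0 is near those shares. CD14, a monocyte co-receptor for lipopolysaccharide, was the highest at 45.7 ± 0.846 CPM in MSCs and 52.9 ± 9.55 CPM in EVs (SD, n = 3). CD68 was at -0.46 and CD3E at 0.30 on the log2 scale, the latter named by position only, from an entry that covers the CD3E symbol entry. The 3 platelet genes tested, PPBP, GP9 and ITGB3, had a median of 0.06, and 0 passed the same thresholds in edgeR, again near those shares. Of 10 adipocyte, mesothelial and epithelial genes, 0 had reads enough to be tested, and they summed to 0.387 to 1.05 CPM in MSCs and 1.17 to 6.37 CPM in EVs. The highest EV sum came with 49 reads of EPCAM, an epithelial adhesion gene, in the EVs of pig 3.

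For each tested gene, the symbol-named genes with the most similar profile over the 6 libraries were sought among 8093, by Pearson's r of log2 CPM. PECAM1 was closest to RASIP1 (r = 0.992), which had 78.2, 69.7 and 68.0 CPM in MSCs and 52.85, 25.6 and 33.9 CPM in EVs, and to UQCRFS1 (r = 0.990). THY1 was closest to YIF1A (0.998) and LOC100049695 (0.997), and CD44 to UBL5 (0.982) and ADORA2A (0.978). NT5E was closest to SERINC5 (0.964) and CCDC138 (0.958), and ENG to SLC6A19 (0.995) and SNX9 (0.993). MCAM was closest to CASP2 (0.986) and SCRN1 (0.9855), and ALCAM to GAL3ST4 (0.984) and ATG7 (0.981). These are the highest of many values over 6 libraries that share depth and scaling, and they are given as a description with no test.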

How the data were processed

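The authors aligned mRNA reads to the pig genome (susScr3, per the labels) with TopHat, counted them per gene with featureCounts and deposited raw read counts, gene length and RPKM (reads per kilobase scaled to mapped reads) for each library. The labels' processing notes also list HTSeq. The labels name a stranded kit and the paper a TruSeq RNA kit. The strand setting of the counting and its handling of overlapping entries were not given in the sources used here. Overlaps were sought on the same strand only, and entries on the opposite strand were not examined. Of 29661 entries, 3 with shifted columns were left out. Symbols came from the table, from the Ensembl identifier (RefSeq gene table) or, for 892 entries, from covering a symbol entry on the same strand by at least 0.9 of its length. For each symbol the entry with the most reads was used.

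EVs were compared with MSCs by edgeR 4.0.16 in R 4.3.3 (TMM, filterByExpr, quasi-likelihood test, Benjamini-Hochberg adjustment over 12392 entries). Intervals used the SE and the degrees of freedom of the fit. Exact permutation tests used log2(CPM + 0.5). Neither these tests nor the main edgeR fit paired the libraries by pig. Libraries of the same pig, paired by the labels, had deviations from the group means that correlated at 0.251, 0.384 and 0.408. Counting intervals and limits cover counting error only.

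The genes, lists and tests were chosen with earlier results of these data known. Named besides the 9 genes are, per list, the 3 tested genes with the highest mean CPM and those past the unadjusted thresholds, and the 2 genes most like each tested gene. Genes named with 0 or few reads, ECSCR and TGFBR2 were chosen after their values were seen. The 6 small-RNA libraries were not used.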

Additional observations from a re-analysis of the deposited data

How the results depend on the processing

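The 16 alternatives were other scaling (RLE, upper quartile), DESeq2 1.42.0, limma 3.58.1 on log2(RPKM + 1) or log2(RPKM + 0.1), no or a stricter filter, sums over all entries of a symbol, the study's rule on RPKM, leaving out each library, and a replicate block for the pig. PECAM1 was the 1 lower gene in the other alternatives, and the count was 0 with limma on log2(RPKM + 1), where the log2 difference was -0.51, and 0 by the study's rule. The adjusted p of PECAM1 ranged from 0.054 (DESeq2) to 0.618, and with the replicate block it was 0.0688. No tested gene of the 9 passed the adjustment under any alternative. Signs turned for CD44 (-0.72 to 0.10 over left-out libraries), ALCAM (-0.74 to 0.94) and NT5E (-0.14 to 0.25 over left-out libraries, -0.0049 and -0.0015 with limma at 0.1 and 1, -0.02475 with the block). Among list genes, 2 were higher in the analysis as reported, 0 with limma on log2(RPKM + 1), 5 without the filter and 2 to 5 over left-out libraries, with 4 without EV replicate 1 or MSC replicate 2 and 5 without MSC replicate 1 or 3. Lower list genes numbered 4, and 3 to 7 over left-out libraries, with 7 without MSC replicate 3. Adjusted calls among them were 0, and 5 with DESeq2, 1 with limma on log2(RPKM + 1) and 1 with the block. Over the unshared length, an alternative chosen after seeing the data, 4 of 9 genes kept their place in the order. Levels of ENG, VCAM1 and CD34 rest on few unshared bases, and 3 pigs limit all comparisons.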
